A study of Caenorhabditis elegans with 6 samples.

Results

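Histone genes package the genome, and in C. elegans most of them sit in small clusters as multiple near-identical copies. They were taken here as every gene whose annotated name begins with his- in the Ensembl annotation (release 115) of the ce11 assembly, WBcel235. That rule gave 72 genes among 19973 protein-coding genes on the nuclear chromosomes. The data were ATAC-seq peaks, the places where the Tn5 transposase could cut chromatin, in isolated germ nuclei (IGN). The nuclei came from young adult cultures grown at 20°C, of wild type strain VC2010 or of strain SX2499, which carries prde-1(mj207). PRDE-1 is a subunit of the complex that binds upstream of piRNA genes, and the comparison asked how chromatin accessibility changes without it. Each genotype had 3 samples, but they were pooled into 1 peak list per genotype, of 13996 wild type and 9674 prde-1 peaks. No value per sample, no depth and therefore no replicate error could be had, and every count stands without a test between genotypes. The mutant cultures were harvested some hours later than wild type, both at a stage set by the embryos that most animals carried. Hours of growth and genotype therefore cannot be told apart.

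A nucleosome wraps DNA around an octamer of the core histones H2A, H2B, H3 and H4, and the linker histone H1 binds between nucleosomes. In animals, core histone genes are expressed mainly while DNA replicates. Their mRNAs, unlike other mRNAs, mostly end in a conserved stem-loop and not in a poly(A) tail. Many are arranged head to head, so that an H3 and an H4 gene, or an H2A and an H2B gene, start from the same short space in opposite directions. Replacement histones such as H3.3 are instead made through the cell cycle, from separate genes that often have introns. In the germ line, where nuclei divide mitotically before they enter meiosis, the supply of new histones accompanies each round of replication.

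By their RefSeq products, the 72 genes encode 17 H2A, 16 H2B, 15 H3 and 16 H4 histones, 5 replacement histones of the H3.3 type (his-69, his-70, his-71, his-72 and his-74), the linker histone gene his-24 and 2 short genes with a histone-fold product (his-39 and his-73). With genes under 10 kb apart placed together, 67 of them fell into 14 clusters and 5 stood alone. Chromosome V held 27 genes, chromosome IV 22, chromosome II 14, chromosome X 4, chromosome III 3 and chromosome I 2. The genes have 50 distinct Ensembl names, because several copies carry the same name, and all 72 matched a RefSeq gene of its own by position, whose symbol is used here.

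Much of this sequence is repeated in the reference genome. The study kept reads with a mapping quality of at least 10, and a read from a sequence that occurs more than a single time in the genome has a low mapping quality. As a measure of this, the share of 50-base windows that occur exactly once in the genome, on either strand, was computed for each gene over its body and 500 bp on either side of its 5′ end. These are called unique windows, and a base inside at least 1 of them a unique base. Only 8 of the 72 histone genes have an annotated 5′ UTR. In the others the 5′ end used here is that of the coding sequence, not a mapped transcription start. The median share of unique windows was 10.7% over the histone genes and 100% over all protein-coding genes. Of the histone genes, 23 had at least 80% unique windows, 39 had under 20%, and 25 had none at all. The gene itself had an identical copy elsewhere in the genome for 35 of the 72, including each of the 25 genes without a unique window.

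The sequences between head-to-head 5′ ends show how close the copies are. They are printed from the RefSeq genome (ce11) from the 5′ end of the H3 or H2B gene to that of its partner, with every TATAAA, the TATA box consensus, or its reverse complement TTTATA in capitals. The first 3 H3/H4 spaces form a graded series. The space of his-6 and his-5 (chrV:8534978-8535213) is made of unique bases throughout. That of his-17 and his-18 (chrV:8897993-8898227) holds 21.7% unique bases, at its his-18 end. That of his-49 and his-50 (chrV:8847705-8847942, minus strand) occurs in 2 identical copies and holds none.
his-6 to his-5: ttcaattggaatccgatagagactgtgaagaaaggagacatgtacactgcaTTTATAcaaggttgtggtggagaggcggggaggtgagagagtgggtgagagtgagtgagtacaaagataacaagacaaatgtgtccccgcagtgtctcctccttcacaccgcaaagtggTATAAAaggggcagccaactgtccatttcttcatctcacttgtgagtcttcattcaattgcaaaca
his-17 to his-18: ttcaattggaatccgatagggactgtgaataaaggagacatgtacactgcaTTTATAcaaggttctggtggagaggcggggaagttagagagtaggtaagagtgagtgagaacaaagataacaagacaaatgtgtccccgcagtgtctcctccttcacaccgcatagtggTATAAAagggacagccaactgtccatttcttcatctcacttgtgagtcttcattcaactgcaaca
his-49 to his-50: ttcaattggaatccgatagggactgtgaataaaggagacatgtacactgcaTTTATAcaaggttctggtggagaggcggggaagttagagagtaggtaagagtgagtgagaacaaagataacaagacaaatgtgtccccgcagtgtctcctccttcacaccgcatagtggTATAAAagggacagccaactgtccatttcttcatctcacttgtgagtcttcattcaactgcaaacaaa

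In a global alignment, 235 of 238 columns matched between the spaces of his-49/his-50 and his-17/his-18, and 225 of 238 between those of his-49/his-50 and his-6/his-5. Yet the wild type list held a peak of rank 271 over the his-6/his-5 space and one of rank 2315 over the his-17/his-18 space. It held no peak at either copy of the his-49/his-50 space. Ranks run from 1, the peak with the highest score in its list. The next pair of H3/H4 spaces, from chromosome IV, is shown for the same reason. The space of his-63 and his-64 (chrIV:11406862-11407115) is unique throughout and carried the peak of rank 50, with its summit 8.5 bp from the middle. That of his-45 and his-46 (chrIV:11326330-11326587, minus strand) matched it in 243 of 260 columns, holds 38.4% unique bases and carried a peak of rank 12972. Neither holds a TATAAA.
his-63 to his-64: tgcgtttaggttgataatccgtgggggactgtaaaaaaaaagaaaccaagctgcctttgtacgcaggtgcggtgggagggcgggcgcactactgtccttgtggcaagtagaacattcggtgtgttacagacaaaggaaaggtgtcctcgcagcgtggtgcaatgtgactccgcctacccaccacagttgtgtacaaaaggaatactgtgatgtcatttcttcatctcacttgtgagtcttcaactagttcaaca
his-45 to his-46: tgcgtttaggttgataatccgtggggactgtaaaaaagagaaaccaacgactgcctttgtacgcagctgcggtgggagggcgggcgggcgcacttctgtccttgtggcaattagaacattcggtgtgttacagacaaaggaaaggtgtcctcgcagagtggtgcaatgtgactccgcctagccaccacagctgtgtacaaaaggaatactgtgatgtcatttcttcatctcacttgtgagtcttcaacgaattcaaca

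The H3/H4 space that chromosome II holds in 3 identical copies, shown here at his-13 and his-14 (chrII:13819938-13820209, minus strand), has a TATAAA near each 5′ end. No peak of either list lay over any of its 3 copies.
his-13 to his-14: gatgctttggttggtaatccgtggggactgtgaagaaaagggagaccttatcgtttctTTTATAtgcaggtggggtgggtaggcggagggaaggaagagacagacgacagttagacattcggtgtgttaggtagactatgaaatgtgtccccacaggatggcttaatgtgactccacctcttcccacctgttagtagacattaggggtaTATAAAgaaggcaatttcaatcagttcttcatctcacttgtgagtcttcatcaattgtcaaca

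The last pair are H2A/H2B spaces of chromosome V. That of his-8 and his-7 (chrV:8533087-8533378) is unique, and carried a peak of rank 993 in wild type and 1892 in the mutant. That of his-54 and his-53 (chrV:8853378-8853669) occurs in 4 identical copies, on both strands, and differs from it in 13 columns. No peak lay over any of the 4 copies in either list.
his-8 to his-7: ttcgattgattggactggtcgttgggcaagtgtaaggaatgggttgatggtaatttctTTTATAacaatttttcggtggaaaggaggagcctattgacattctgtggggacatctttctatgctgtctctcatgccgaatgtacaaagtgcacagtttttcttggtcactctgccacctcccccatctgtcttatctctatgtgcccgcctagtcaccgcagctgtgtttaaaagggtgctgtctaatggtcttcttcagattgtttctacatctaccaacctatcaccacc
his-54 to his-53: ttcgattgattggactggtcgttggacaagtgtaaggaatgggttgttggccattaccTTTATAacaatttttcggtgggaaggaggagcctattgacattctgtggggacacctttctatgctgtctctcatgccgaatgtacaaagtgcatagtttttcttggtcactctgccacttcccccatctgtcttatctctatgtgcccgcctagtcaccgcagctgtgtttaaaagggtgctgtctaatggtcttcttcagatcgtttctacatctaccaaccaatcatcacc

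Peaks were found at 43 of the 72 histone genes in the wild type list, or 59.7% (95% Wilson interval 48.2 to 70.3%), where 39.4% of all protein-coding genes had one. In the prde-1 list 37 genes had a peak, or 51.4% (40.1 to 62.6%), against 31.2% of all protein-coding genes. A gene was counted when a peak overlapped its body or the 500 bp on either side of its 5′ end by at least 1 base. The intervals cover counting error only, and genes that share a promoter or a peak are not independent. The same 37 genes had a peak in both lists. The 6 others had a wild type peak only, a share of 8.33% beside 8.59% of all protein-coding genes. No histone gene had a prde-1 peak only, where 0.421% of all protein-coding genes did. The remaining 29 had a peak in neither list.

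The counts differed more between genes of unique and of repeated sequence than between the lists. Among the 23 genes with at least 80% unique windows, 20 had a wild type peak (87.0%, interval 67.9 to 95.5%) and 19 a prde-1 peak (82.6%). Over all protein-coding genes with as much unique sequence the shares were 40.4% and 32.2%. All 10 genes with 20 to 80% unique windows had a peak in both lists. Over all protein-coding genes of that class, 29.7% had a wild type peak and 20.8% a prde-1 peak. Among the 39 genes under 20%, 13 had a wild type peak and 8 a prde-1 peak, or 33.3% and 20.5%, where 6.29% and 4.55% of all such protein-coding genes did. Those protein-coding genes number 286 and include the 39 histone genes. Of the 247 others, 5 had a peak in each list. Of the 25 histone genes without a unique window, 1 had a wild type peak, his-15, and none had a prde-1 peak. Of the 142 other protein-coding genes without one, 0 had a peak in either list. The part of repeated sequence in these counts was not tested, and a missing peak at a repeated gene does not show whether the gene was accessible.

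**Figure D1:**
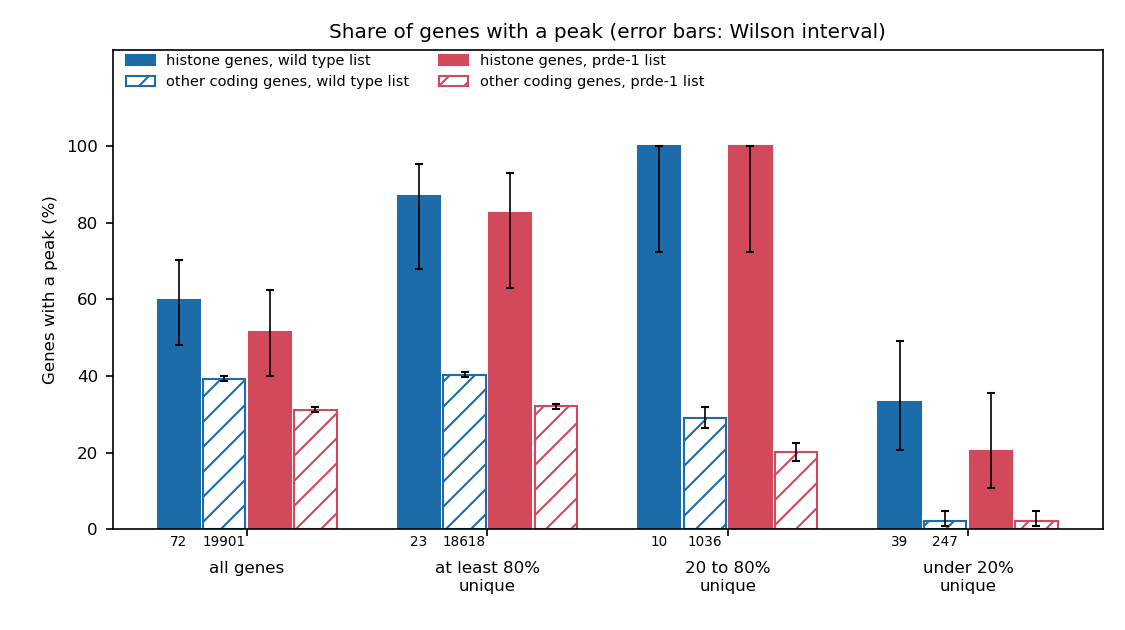
Share of genes with a peak (y axis, %) for histone genes (filled bars) and other protein-coding genes (hatched bars) in the wild type (blue) and prde-1 (red) lists, by the share of unique 50-base windows; numbers under the bars are genes and error bars are 95% Wilson intervals for counting error. Histone genes stood above the other genes in every class, from 33.3% against 2.02% in the wild type list where under 20% of windows were unique to 87.0% against 40.4% where at least 80% were.

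The classes of core histone genes differed in their counts. A wild type peak was found at 11 of 15 H3, 11 of 16 H4, 9 of 17 H2A and 7 of 16 H2B genes, and a prde-1 peak at 10, 9, 9 and 5 of them. The median share of unique windows ran in nearly the same order, 11.9% for H3, 42.3% for H4, 5.99% for H2A and 2.15% for H2B genes. The core genes with at least 80% unique windows, 4 H3, 6 H4, 3 H2A and 2 H2B genes, had a peak in both lists without exception. By chromosome, wild type peaks were found at 5 of 14 histone genes on chromosome II, 17 of 22 on IV, 14 of 27 on V and all 4 on X. Shares over all protein-coding genes of these chromosomes were 40.6%, 37.3%, 27.7% and 39.2%.

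The same held base by base. Within the histone gene windows, 71.9% of the unique bases lay inside a wild type peak and 16.4% of the repeated ones. In the prde-1 list the shares were 64.2% and 5.33%. Over all protein-coding genes, 7.30% of the unique bases and 1.79% of the repeated ones lay in a wild type peak. Those windows take in whole gene bodies, which are short in most histone genes. The base sets are therefore unlike, and histone windows lie closer to a 5′ end. Every summit of a peak at a histone gene, 29 in wild type and 26 in the mutant, fell on a unique base, as did 99.0% and 99.4% of the summits over each whole list. In the 13 repeated genes (under 20% unique windows) with a wild type peak, the summit of the best peak was over 500 bp from the 5′ end in 10, against 6 of the 30 genes with more unique sequence. The best peaks of repeated genes thus mostly had their summit away from the 5′ end. Of these genes, his-46, his-45, his-55 and his-56 also had a lower-ranked wild type peak with its summit inside their space.

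**Figure D2:**
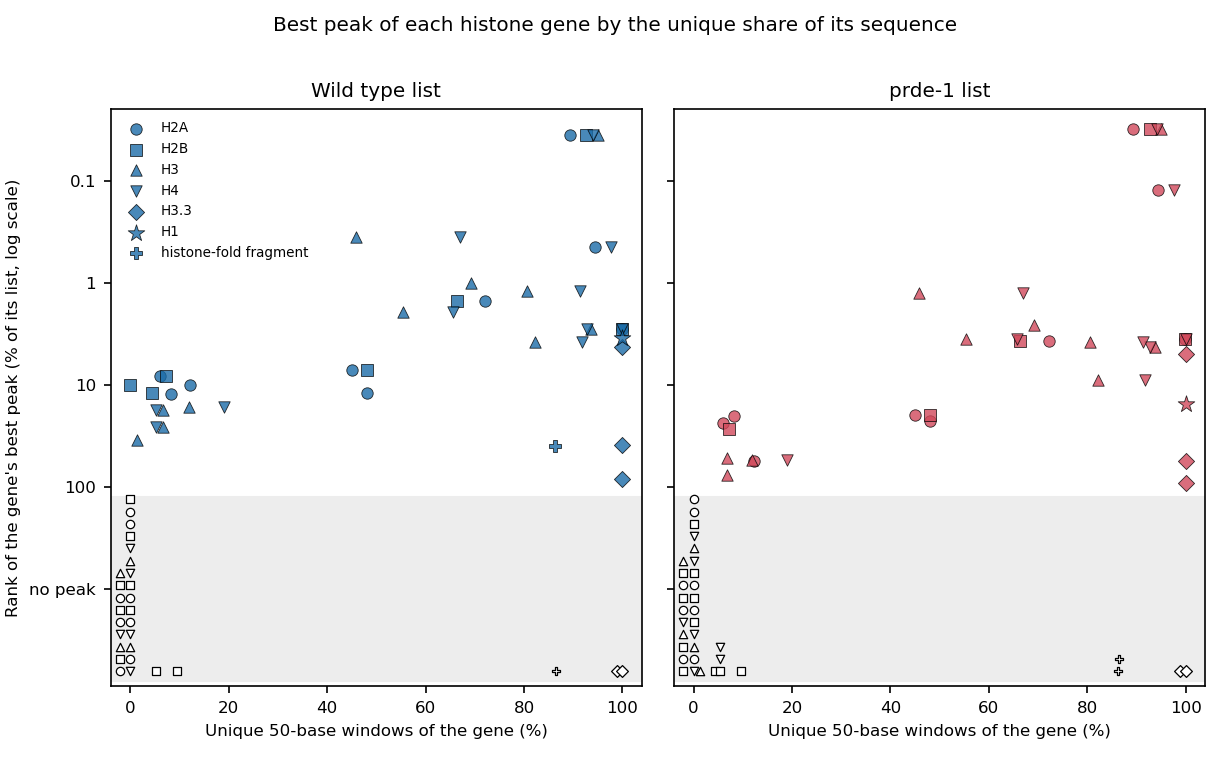
Each symbol is 1 of the 72 histone genes, shaped by its class, at the share of its 50-base windows that are unique (x axis, %) and the rank of its best peak as a percent of the list (y axis, log scale, best at the top), for the wild type list (left) and the prde-1 list (right). Open symbols in the grey band had no peak and are stacked, with some shifted sideways to be seen. The 25 genes without a unique window lie in the band in both panels, except his-15 in wild type.

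Many histone peaks stood near the head of their list and others near its end. The 43 genes were reached by 29 wild type peaks with a median rank of 1250 of 13996, at 8.93% of the list. Of these, 15 stood in the top 10% and 12 in the top 5%. The 26 prde-1 peaks had a median rank of 1892.5 of 9674, at 19.6%, and 11 stood in the top 10%. In the lower 50% of their list stood 5 of the wild type and 8 of the prde-1 peaks. Histone peaks were also broad, with a median width of 1184 bp in wild type and 953 bp in the mutant, against 334 and 290 bp over all peaks. Rank is used because the deposited score sums −log10 p over the width of a peak, and is not on a common scale between the lists. The 20 wild type peaks whose summit lay within 500 bp of a histone 5′ end had a median rank of 560.5.

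The strongest histone locus was the cluster of his-61, his-62, his-60 and his-59 on chromosome IV, from 7485834 to 7488659. It holds an H2A/H2B pair followed by an H4/H3 pair, with 89.3 to 94.96% unique windows. A single wild type peak of 3574 bp covered all 4 genes and ranked 5 of 13996, with a −log10 p of 59.9 at its summit. The prde-1 peak over the same genes was 3360 bp wide and ranked 3 of 9674. Both summits lay at the same base, in the his-61/his-62 space, 38 bp from its middle.

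The single pair on chromosome I, the H4 gene his-67 and the H2A gene his-68, had the next best prde-1 rank. It is the 1 head-to-head pair that joins an H4 with an H2A gene, over the longest space of all, 368 bp. Its wild type peak ranked 62 and its prde-1 peak ranked 12. It was 1 of the 2 histone peaks with a better rank, as a percent of its list, in the mutant.

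Downstream on chromosome IV, the clusters mixed unique and repeated pairs. In the cluster from 8331044 to 8336340, the H4/H3 pair his-31 and his-32 had 92.8 and 93.7% unique windows and a peak of rank 394 in wild type and 415 in the mutant. The H2A/H2B pairs on either side of it, his-29/his-30 and his-33/his-34, are identical copies with no unique window, and neither had a peak. In the cluster from 11400415 to 11407427, his-63 and his-64 carried the peak of rank 50 in wild type and 121 in the mutant. The other pair of that cluster, his-66 and his-65, had 7.25 and 5.99% unique windows. Its wild type peaks, of ranks 1250 and 1134, had their summits 543 and 552 bp from the nearer 5′ end, one on each side.

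Peaks of the same form stood at the outer edges of the clusters from 11324056 and from 11337853, which hold near-identical pairs. Their H3/H4 spaces, at his-46/his-45 and his-55/his-56, matched in 257 of 258 columns when one was inverted. Each carried a small wild type peak, of 150 bp and rank 12972 at his-46/his-45 and of 156 bp and rank 11627 at his-55/his-56. The summits lay 32 bp from the 5′ end of his-45 and 33 bp from that of his-55, both H3 genes. Both fell on unique bases, which make up 38.4% of each space. Because the 2 spaces share nearly all their sequence, these like positions are not independent. The part of repeated sequence in them was not tested. Neither peak had a prde-1 counterpart. At the edges, a wild type peak of rank 1727 stood beside his-47 and one of rank 1692 inside his-57, an H2A gene with introns, and both had counterparts.

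The 13 genes on chromosome II, from 13817760 to 13828697, make up the largest cluster. Its 6 head-to-head pairs are 3 identical H2A/H2B and 3 identical H3/H4 spaces. The unpaired H3 gene his-42 at its end had 69.2% unique windows and the best peak, of rank 140 in wild type and 248 in the mutant. Its summit lay 846 bp upstream of the his-42 5′ end in both lists, and the next nearest 5′ end, of F08G2.4, was 1059 bp away. At the other end, a wild type peak of rank 1410 with its summit 421 bp from the his-16 5′ end reached his-16 and his-15. The 10 remaining genes had 0 to 5.25% unique windows. Of these, his-25 was touched by a wild type peak of rank 4881, and the others had none in either list.

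Chromosome V held the contrast in its plainest form. The 6 genes from 8847393 to 8854053 lie in a run of 15189 bp without a unique base, and none had a peak. The cluster from 8889488 to 8898539 starts with copies of the same 6 genes, in a run of 15375 bp, also without a peak. It goes on to his-17 and his-18, whose H3/H4 space carried a wild type peak of rank 2315 and a prde-1 peak of rank 5192, with summits 1 bp apart. Further along the chromosome, the cluster of his-4, his-3, his-2 and his-1 had 66.4 to 91.3% unique windows. Its H2A/H2B space had peaks of rank 209 in wild type and 356 in the mutant, and its H3/H4 space of rank 170 and 367. The cluster from 8532715, with his-8, his-7, his-6 and his-5, ranked 993 and 271 in wild type and 1892 and 345 in the mutant. The short gene his-39 at its end, with 86.4% unique windows, had no peak. On chromosome X, the H4/H3 pair his-38 and his-40 had a peak of rank 531 in wild type and 858 in the mutant.

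**Figure D3:**
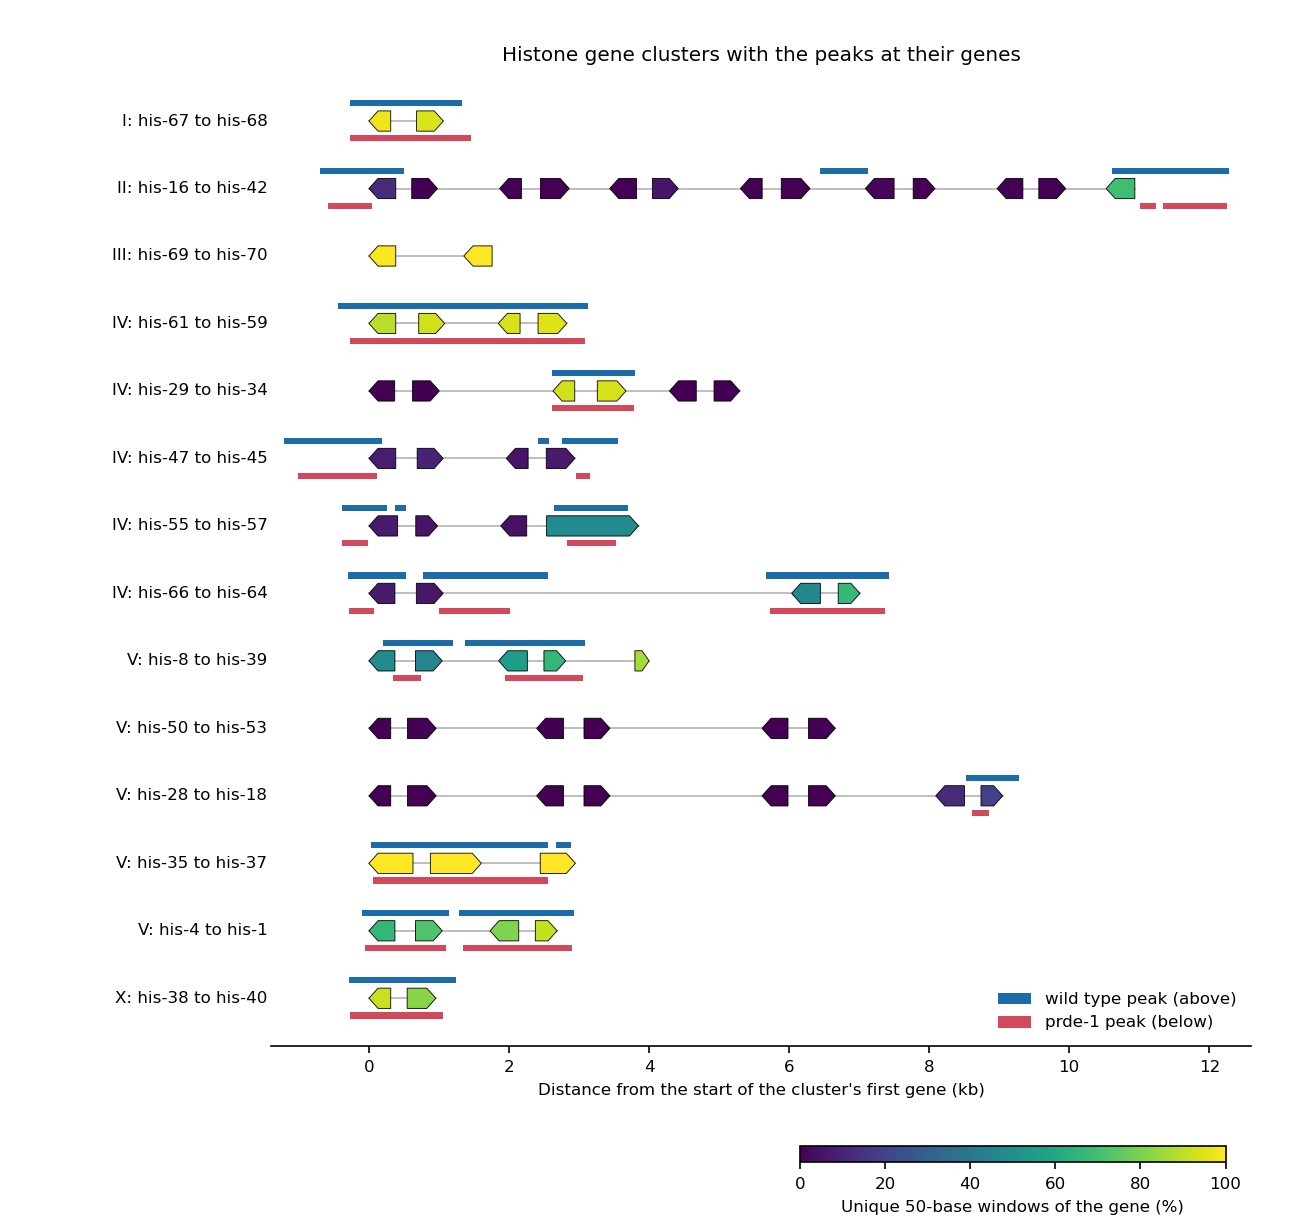
The 14 histone gene clusters, labelled by chromosome and first and last gene, drawn to scale from the start of the first gene (x axis, kb). Arrows are genes pointing in the direction of transcription, colored by the share of unique 50-base windows, and bars are the peaks at the genes, wild type in blue above and prde-1 in red below. The 4 genes from his-61 to his-59 lie wholly under 1 bar in each list, and the 6 genes from his-50 to his-53 under none.

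The genes of the replacement and linker histones are free of such copies, and differed among themselves. All 5 H3.3 genes had 98.8 to 100% unique windows. At his-72, on chromosome III, a peak of 1670 bp ranked 590 in wild type and 484 in the mutant, with summits 143 and 95 bp upstream of its 5′ end. Those ranks stand at 4.22% and 5.00% of their lists. The X-linked his-71, the other main H3.3 gene of C. elegans, had a peak of 130 bp that ranked 11657 in wild type, with its summit 154 bp upstream. In the mutant that peak was 148 bp wide and ranked 8748, at 90.4% of its list against 83.3% in wild type. The peak of rank 5402 at his-74 had its summit 690 bp downstream of its 5′ end, past the gene and 47 bp from the 5′ end of ccch-3. A weaker one, of rank 11936, lay 284 bp from the 5′ end of his-74 itself. The adjacent genes his-69 and his-70 on chromosome III had no peak in either list. So 3 of the 5 H3.3 genes had a peak in each list, all of them genes with introns.

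The linker histone gene his-24, on chromosome X, was reached by a wild type peak of 1526 bp and rank 489, with its summit 39 bp upstream of the 5′ end. In the prde-1 list the same stretch was split. A peak of 409 bp and rank 1893 had its summit at the same base, and a higher-ranked peak of 990 bp, rank 1497, had its summit 1208 bp from the 5′ end, beyond the gene. On chromosome V, the H2A, H2B and H4 genes his-35, his-41 and his-37 are core histone genes with an intron and without the stem-loop motif. A peak of 2520 bp covered the space of his-35 and his-41 and reached his-37, with rank 395 in wild type and 339 in the mutant. Those ranks stand at 2.82% and 3.50% of their lists. All 8 histone genes with introns had a wild type peak. Of these, his-57 had 48.0% unique windows and the others 99.9 to 100%. Among all histone genes with at least 80% unique windows, 87.0% had a wild type peak.

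A stem-loop sequence was found after most core histone genes. The most frequent 16-base sequence with 6-base pairing arms in the 100 bases after the stop codon was searched for on the coding strand. It was picked by its frequency in these same genes, so its abundance among them is a description.
stem-loop motif: GGCCCTCTTTAGGGCC

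It occurred after 53 of the 72 stop codons, at a median of 43 bases (32 to 58), and after 0 of the 19901 other protein-coding genes. All 15 H3 genes, 15 of 16 H4, 12 of 17 H2A and 11 of 16 H2B genes held it, and no H3.3, linker or histone-fold gene did. It did not separate clustered core genes from the rest. The H2B genes his-52, his-54, his-22 and his-20 and the H2A genes his-53, his-19, his-47 and his-68 lacked it, though clustered and without introns. A hairpin of any such sequence was found after 57 histone genes and 7.24% of the other genes. A wild type peak was found at 33 of the 53 genes with the motif and at 10 of the 19 without. Of those 19, 7 had under 20% unique windows and 12 at least 80%.

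The 72 genes form 31 pairs with 5′ ends within 1000 bp, of which 16 join H2A with H2B, 14 join H3 with H4 and 1 joins H2A with H4. Their spaces were 227 to 368 bp long, with a median of 258 bp and a median GC content of 45.8%. The 1665 other head-to-head pairs of protein-coding genes had a median space of 479 bp and a median GC content of 33.1%. Most histone spaces run between coding sequences, so they include any 5′ UTR that is not annotated. The 31 histone spaces have 21 distinct sequences, since 16 of them share 6 sequences and 15 match no other histone space. A wild type peak overlapped 16 of the 31 spaces (51.6%, interval 34.8 to 68.0%), and 53.7% of the other pairs. A prde-1 peak overlapped 12 (38.7%), and 51.2% of the others.

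Pairs with a peak and pairs without one differed in how unique their space was. All 11 spaces with at least 80% unique bases had a peak in both lists (interval 74.1 to 100%), where 54.7% and 52.1% of the other pairs with as much unique sequence did. Of the 17 spaces without a unique base, 2 were overlapped by a wild type peak and 0 by a prde-1 peak. In both of the 2, at his-16/his-15 and his-66/his-65, the peak came in from the side, with its summit 535 and 696 bp from the middle of the space. Of the 3 spaces between these, all had a wild type peak and 1 had a prde-1 peak. Each of the 17 was 55.8 to 95.5% identical to its most similar unique space of the same kind, with a median of 73.1%. Of the 15 without a wild type peak, 6 were at least 80% identical to a unique space that had one.

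Where both lists had a summit inside a space, the 2 mostly lay close together. In 13 pairs the wild type summit lay inside the space and in 11 the prde-1 summit did, or 41.9% and 35.5%, beside 47.8% and 46.8% of the other pairs. Among the 11 unique spaces both held the summit in 10, beside 48.7% and 47.7% of other pairs with as much unique sequence. For the 11 pairs with both, the 2 summits were a median of 2 bp apart (0 to 54 bp), and in 9 of them within 5 bp. The wild type summits lay a median of 25.5 bp from the middle of the space (7.5 to 74.5 bp). The exceptions were his-8/his-7, where the summits differed by 54 bp, and his-2/his-1, by 18 bp. Over all shared peaks, 72.5% had summits within 10 bp of each other. Of the 11 pairs, his-17/his-18 has only 21.7% unique bases in its space.

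**Figure D4:**
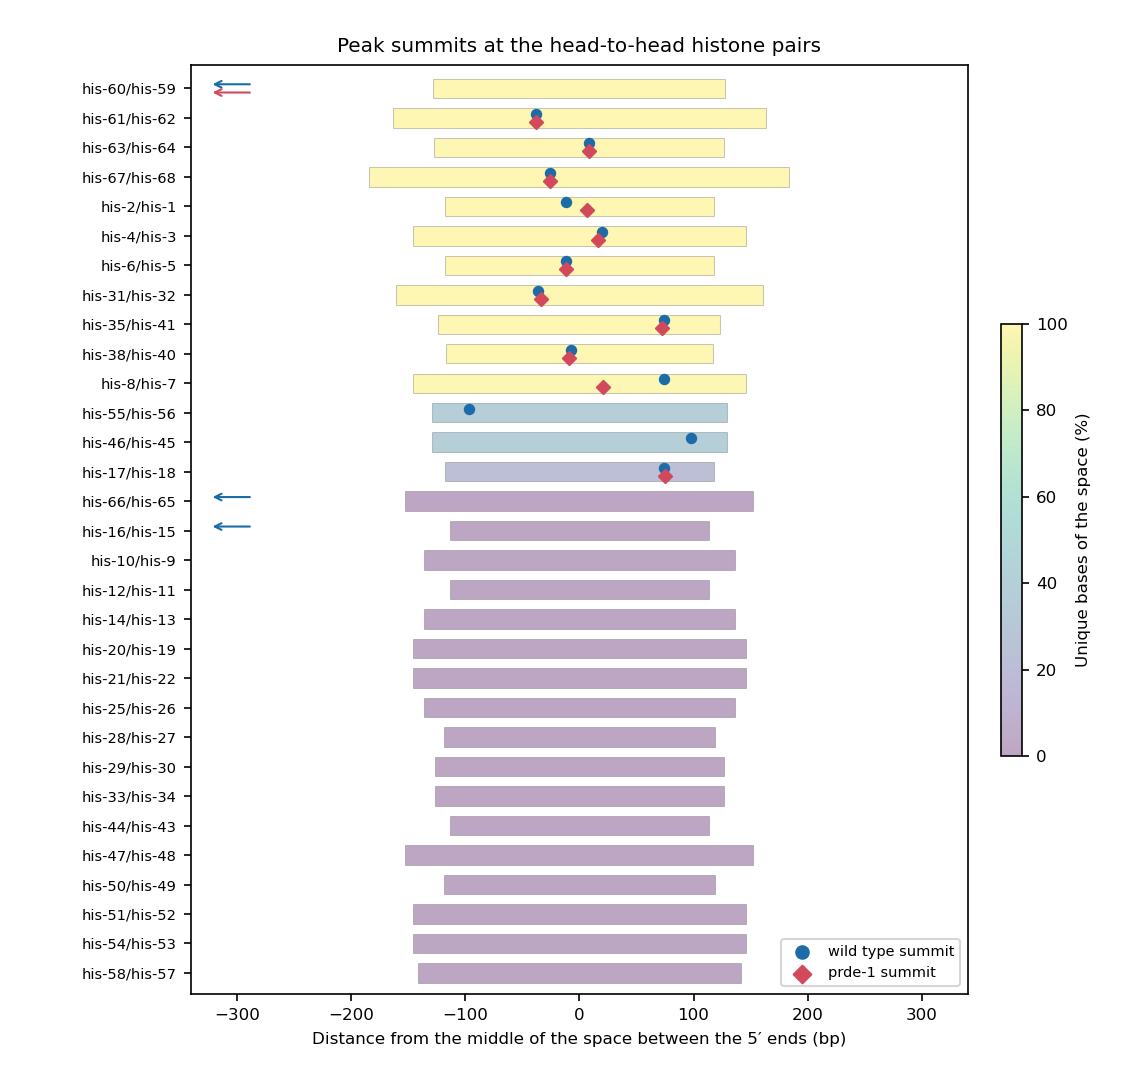
The 31 head-to-head histone pairs, each a bar spanning the space between its 5′ ends, centered on the middle (x axis, bp) and colored by the share of unique bases. Circles are wild type and diamonds prde-1 summits, and arrows mark summits beyond the left edge. Summits of both lists sit inside 10 of the 11 unique spaces, the exception being his-60/his-59, and no summit sits inside a space without a unique base.

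Several short sequences recurred among the histone spaces. TATAAA, searched on both strands, was found in 24 of the 31 spaces, 16 of the 21 distinct ones and 53.9% of other head-to-head spaces. Of its 33 matches measured to a 5′ end outside chromosome I, 29 lay 56 to 68 bp from one. Most of these 5′ ends are those of coding sequences, so the distances include any 5′ UTR that is not annotated. It was present in 10 of 14 H3/H4 and 13 of 16 H2A/H2B spaces. Among H3/H4 pairs, those of the chromosome IV genes his-60/his-59, his-46/his-45, his-55/his-56 and his-63/his-64 lacked it. In the 300 bp upstream of the 5′ end it occurred in 70.8% of histone genes and 39.5% of the others. Paired histone genes share most of that stretch, and identical copies count each time, so these genes are not independent units. A wild type peak lay over 11 of the 24 spaces with the motif and 5 of the 7 without it. The 15 spaces without a peak, 13 of them with the motif, all lacked a unique base. Of the 11 unique spaces, all with a peak, 9 held the motif.

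The 8-base sequences held by most distinct spaces were picked by their frequency, so their abundance in these spaces is a description. AAGTGAGA was found in 13 of 21 and in the upstream 300 bp of 52.8% of histone genes, against 2.42% of the other protein-coding genes. ATGTGTCC and GGGACACA, which overlap each other, were each found in 13, and upstream of 58.3% of histone genes, against 0.573% and 0.432% of the others. GGGGACAC, which overlaps both, was found in 12 spaces and upstream of 61.1% against 0.301%. AAGACTCA and AGACTCAC, which also overlap, were found in 12 spaces each, and stand near the H4 end of the printed H3/H4 spaces in the form tgagtctt. All were searched on both strands, and the upstream shares count shared spaces and identical copies each time, as for TATAAA. No factor is named for them, and a match is not a binding site.

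Without PRDE-1, most histone peaks stayed in the list. Of the 29 wild type peaks, 5 had no prde-1 counterpart (17.2%, interval 7.60 to 34.5%), where 36.1% of all wild type peaks had none. With an overlap of at least 50% of the wild type peak required, the shares were 31.0% and 44.1%, and with the wild type list shortened to the length of the prde-1 list, 8.33% and 16.6%. Among the wild type peaks in the top 10% of the list that share was 0.500%, and the 15 histone peaks there all had a counterpart. The 5 ranked 4881 at his-25, 5488 at his-73, 11627 at his-55 and his-56, 12240 at his-37 and 12972 at his-46 and his-45. Conversely, each of the 26 prde-1 peaks overlapped a wild type peak, and 1.91% of all prde-1 peaks did not.

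Of the 24 shared wild type peaks, 22 had a better rank in the wild type list than their counterpart had in the prde-1 list, each as a percent of its list. That is 91.7%, beside 87.9% of all shared peaks. The counterpart was narrower for 21 of the 24 (87.5%), beside 86.9% of all. The summits lay within 10 bp of each other in 20 of the 24 (83.3%), beside 72.5% of all. In rank and width the shared histone peaks thus differed between the lists about as often as shared peaks did in general. The 4 with the largest differences reached repeated genes. The peak beside his-46 and his-45 stood at 25.8% of the wild type list and its counterpart at 75.5% of the other, with its summit nearer to the 5′ end of B0035.21 (137 bp) than to that of his-45 (535 bp). The one at his-16 and his-15 stood at 10.1% and 55.4%.

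**Figure D5:**
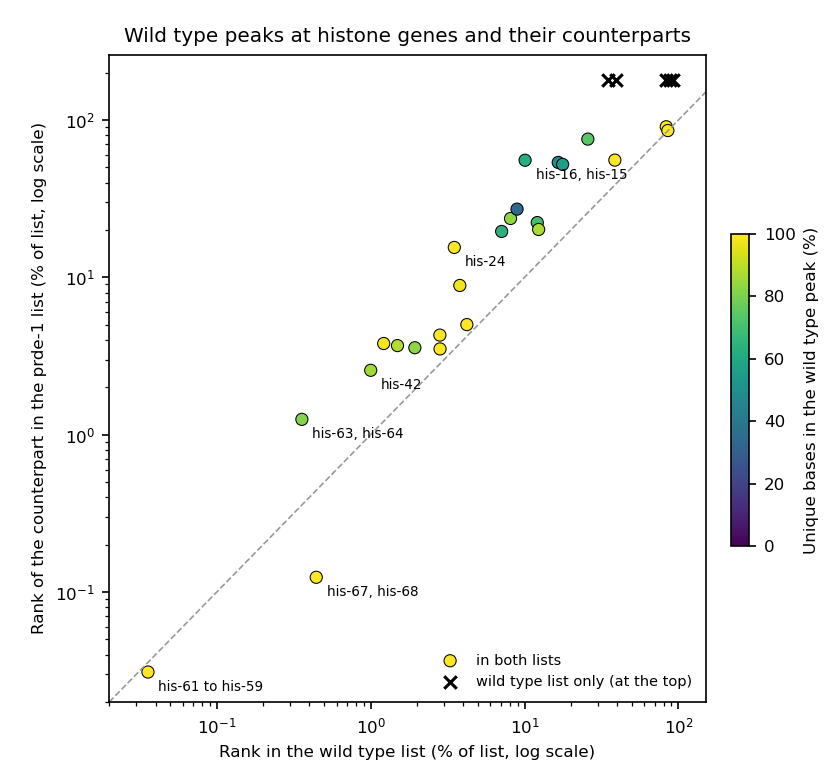
Wild type peaks at histone genes by their rank (x axis, % of the wild type list, log scale) and the rank of their counterpart in the prde-1 list (y axis, % of that list, log scale), colored by the share of unique bases in the wild type peak. Crosses at the top are the 5 peaks without a counterpart, and the dashed line marks equal ranks. Of the 24 shared peaks 22 lie above the line, and those of the his-61 cluster and of his-67 and his-68 lie under it.

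The 6 genes with a wild type peak only were his-73, his-15, his-25, his-46, his-56 and his-58. In 4 of them, his-15, his-46, his-56 and his-58, the best wild type peak had a prde-1 counterpart that ended before it reached the gene's window. The counterparts were narrower, 621 bp against 1200 bp at his-15 for one. The best peak of his-73 and that of his-25 had no counterpart. At his-73, a histone-fold gene of 141 bp, the summit lay 492 bp from the 5′ end and 232 bp from that of W09H1.3, a gene nearer to it. At his-25 the summit lay 981 bp downstream of the 5′ end, past the gene.

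The label of the nuclei was checked against marker genes. A wild type peak was found at 6 of 8 germ line markers, among them the P granule helicase gene glh-1 (rank 201) and pgl-1, and not at glp-1 or him-3. It was also found at 9 of 11 markers of muscle, intestine, neurons and epidermis, with rank 2 at the yolk gene vit-2. In the mutant the counts were 6 of 8 and 8 of 11. Shares over all protein-coding genes were 39.4% in wild type and 31.2% in the mutant. A peak anywhere in the gene body was counted. In both groups some wild type summits lay far downstream of the 5′ end, as at vit-2 (4967 bp), unc-54 (5730 bp) and pgl-1 (2568 bp). Peaks at these markers did not set germ nuclei apart from somatic ones, and an accessible gene is not thereby an expressed one. In such bulk nuclei, fewer cells with an open site and a less open site in each cell cannot be told apart. The part of other cell types in the histone peaks was not tested.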

How the data were processed

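ATAC-seq was performed on isolated germ nuclei, with 3 samples of each genotype. As the methods give it, reads were trimmed with cutadapt, aligned to ce11 with bowtie2, filtered at a mapping quality of 10, cleared of mitochondrial reads and duplicates, downsampled and merged. Fragments under 100 bp, shifted to the Tn5 cut site, went to Genrich, whose version is not given in the sources used here. The authors deposited 1 list per genotype with a score that sums −log10 p over each peak (at least 200) and the −log10 p at the summit, not adjusted for multiple tests. The deposited score was used only as a rank within its list. Neither list has values per sample, so differential accessibility could not be tested and depth is unknown.

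Histone genes were named by the rule his- in Ensembl release 115 and matched to RefSeq by position. Members, lists and classes of uniqueness were chosen with earlier results of these data known. Values are given in full for the highest-ranked member of each cluster, members with a peak in 1 list only, members outside clusters, and replacement and linker histones. The sequences shown were chosen after their values were seen. Unique windows of 50 and 100 bases were counted by exact match on both strands. Spaces were aligned globally (match 1, mismatch -1, gap -2). Shares carry 95% Wilson intervals, which cover counting error only. Python 3.11.15, numpy 2.4.6, scipy 1.17.1 and matplotlib 3.10.9 were used, and the window count, overlap search and alignment were checked on simulated data. Alternatives in peak threshold, distance, overlap and genes counted are given in the closing section.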

Additional observations from a re-analysis of the deposited data

How the results depend on the processing

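Of 29 alternatives to 5 results, 19 were counted as the same and 10 as moved. A share was counted as moved when it left the interval of the reported value. The median rank has no interval, and there 1250 was counted as the same and 560.5 as moved. The share of histone genes with a wild type peak, 59.7% as reported, was 43.1% when the 5′ end itself had to lie inside a peak and 87.0% among genes with at least 80% unique 50-base windows. The prde-1 share, 51.4% as reported, was 36.1% and 82.6% under the same settings. The remaining shifts came from alternatives chosen after seeing the data. With 100-base windows the shares were 88.9% and 85.2%, and with the summit within 500 bp of the 5′ end 45.8% and 38.9%. The share of head-to-head pairs with a wild type peak was 100% among those with a unique space, and the median wild type rank was 560.5 with the summit near a 5′ end. Over genes, the wild type share was above the prde-1 share in each of these, and over unique pairs both were 100%. The proportion of wild type peaks lacking a counterpart ran from 8.33 to 31.0%. No paired analysis was possible because each list pools its samples, and for the same reason no replicate could be left out.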

Other observations

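The genes of other histone variants and of histone handling were described for comparison, from a list chosen with earlier results of these data known. A wild type peak was found at 8 of 11 variant and linker histone genes and a prde-1 peak at 7. The H2A.Z gene htz-1 was reached by a wild type peak of rank 311, with its summit 2302 bp downstream of the 5′ end, past the gene. The centromeric H3 gene hcp-3 had a wild type peak of rank 434. Its paralog cpar-1 had a peak of rank 11773 in wild type and none in the mutant. Among linker histone genes of the hil series, wild type ranks were 279 at hil-4, 562 at hil-7, 626 at hil-5, 970 at hil-3 and 1942 at hil-2. No peak was found at hil-1, hil-6 or hil-8. These genes are mostly unique in sequence, from 76.7% unique windows at hil-1 to 100%.

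All 13 genes of histone mRNA processing and histone chaperones had a wild type peak and 12 had a prde-1 peak, the exception being rba-1, whose wild type peak ranked 11890. Shares over all protein-coding genes were 39.4% and 31.2%. The best wild type ranks were 155 at unc-85, an ASF1 homolog, and 941 at hat-1, a histone acetyltransferase gene. The gene of the stem-loop binding protein, cdl-1, had a peak of rank 2321 with its summit 538 bp upstream of the 5′ end.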
